A study of Rattus norvegicus with 16 samples.

Results

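The response of the rat liver to sepsis under isoflurane was measured in 8 of the 16 libraries of the series. These were the 4 Isoflurane-Sepsis libraries, which are numbered 1 to 4 in their titles, and the 4 isoflurane control libraries, numbered 5 to 8. Membership came from the titles alone and used no measured value. The series held 48 male Sprague-Dawley rats aged 10 weeks, 12 in each group, and each library was made from liver tissue of 3 rats that had been pooled. Replicate error in what follows is thus that of pools and not of single rats. Both groups were induced with isoflurane at 5%, maintained on it from a starting concentration of 1.5%, intubated and ventilated, with a target rectal temperature of 37 °C. The isoflurane was given in pure oxygen. Sepsis was produced by cecal ligation and puncture, in which the cecum is tied off and pierced so that gut contents leak into the abdomen. In control rats the abdomen was opened and the cecum was lifted out and put back. Livers were frozen 8 h after the celiotomy in both groups. The control liver is thus that of an anesthetized and operated rat, and a change shared by both groups cannot be seen here. Low blood pressure was treated with saline first and with less anesthetic next, so the amount of anesthetic could differ between rats.

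Reads counted on genes numbered 16472017 to 21692360 per library in the Isoflurane-Sepsis group and 20647030 to 49937173 in the controls. Reads outside genes made up 22.4% to 25.4% of each library, and reads on more than 1 gene 1.07% to 1.26%. Albumin alone took 6.52% to 9.03% of the reads on genes, and the 20 hepatocyte markers that were looked up all had enough counts to be tested, so the libraries had the content of liver tissue. Expression is given as CPM, the reads on a gene scaled to a fixed total of reads on all genes and corrected by TMM. CPM is not divided by gene length, so it compares libraries for a gene and not genes with each other. Libraries of the same group differed by far more than sampling noise, with a chi-square per degree of freedom of at least 3.47, so no library had been deposited more than 1 time.

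The liver is the main source of the plasma proteins of the acute phase. Interleukin-1, tumor necrosis factor and interleukin-6, released when macrophages meet bacterial products, act on hepatocytes through NF-kB and STAT3 and turn the secreted output toward fibrinogen, haptoglobin and other defense proteins. The same signals are known to lower hepatocyte genes for drug metabolism, bile acid transport and lipid handling, many of which depend on HNF4A, RXRA and the nuclear receptors CAR and PXR. Neutrophils and monocytes enter the liver early in abdominal sepsis.

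Sepsis changed the level of a large part of the measured genes. Of 10361 genes tested with edgeR's quasi-likelihood test, 5183 were called, that is had a Benjamini-Hochberg adjusted p below 0.05, which is 50.0% of them. Of these, 2659 (25.7%) were higher and 2524 (24.4%) were lower in Isoflurane-Sepsis. In 2508 genes (24.2%) every sepsis library lay above every control library, and in 2560 (24.7%) every sepsis library lay below. A list of genes with called shares near these values does not stand out from the rest of the table. The size of the change was moderate in most genes. The median log2 fold change, sepsis minus control, was 0.64 in genes called higher and -0.66 in genes called lower, against 0.01 in all genes tested. A log2 fold change above 1 was reached by 773 called genes and one below -1 by 669, while 196 lay above 2 and 102 below -2. Genes called higher took 36.7% of the reads in Isoflurane-Sepsis and 26.4% in control, and genes called lower 16.9% and 25.2%. Leaving out 1 library at a time gave between 4145 calls (without library 8, a control) and 5668 (without library 1, a sepsis pool), and none of the shared calls changed sign.

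**Figure D1:**
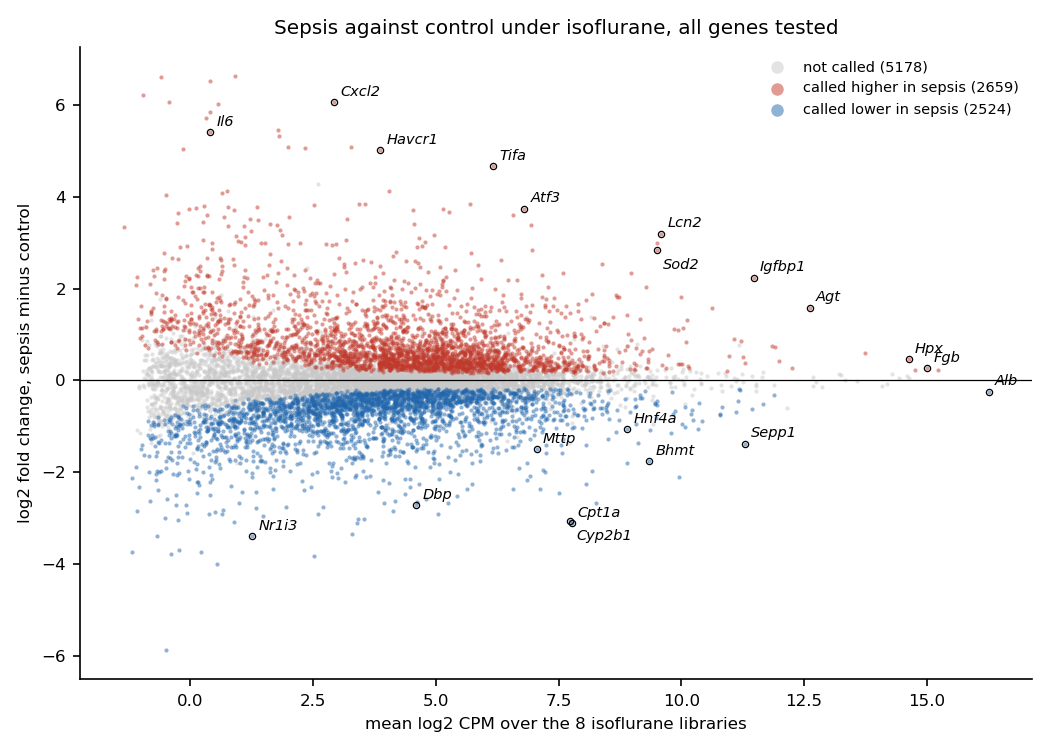
Log2 fold change of Isoflurane-Sepsis against isoflurane control for each of the 10361 genes tested, against its mean log2 CPM over the 8 libraries. Red points are the 2659 genes called higher, blue points the 2524 called lower and grey points those not called, and the named genes are described in the text.

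Chemokines and cytokines, the messengers that call in and activate white blood cells, held several large rises. Of 23 chemokine genes tested, 16 rose and 3 fell, with a median log2 fold change of 1.26, and of 14 cytokine genes 7 rose and 3 fell, with a median of 0.87. The deposited counts held 33 chemokine and 29 cytokine genes, and those with too few counts were not tested. Genes very low in control, such as Cxcl2, Ccl2, Il6, Tnf and Csf3, passed that limit through the sepsis libraries alone. The shares and medians of these lists thus lean toward rises. The size of the rise of such genes rests on few control reads and is uncertain. Cxcl2, an attractant of neutrophils, was at 10.8, 14.99, 17.6 and 17.6 CPM in sepsis libraries 1 to 4 and at 0.268, 0.188, 0.266 and 0.197 CPM in control libraries 5 to 8. The groups lay far apart and the lowest sepsis pool was library 1. The log2 fold change was 6.06 ± 0.24 (SE) with an adjusted p of 6.37e-06. Ccl2, which attracts monocytes, read 5.002, 6.73, 4.93 and 11.6 CPM in sepsis and 0.178, 0.235, 0.133 and 0.158 CPM in control, with library 4 the highest (5.31 ± 0.39, adjusted p = 4.11e-05). Ccl3, an attractant made by macrophages, read 7.67, 9.92, 8.01 and 14.5 against 0.223, 0.565, 0.354 and 0.158 CPM (5.06 ± 0.36, adjusted p = 4.01e-05). Library 4 was also the highest pool for Il6, the main inducer of the acute phase, at 1.36, 1.90, 2.27 and 5.43 CPM against 0.0446, 0.0471, 0.0443 and 0.0788 CPM. Its log2 fold change was 5.40 ± 0.62 and its adjusted p 0.00025. Csf3, the growth factor of neutrophils, read 1.08, 3.49, 2.77 and 3.77 CPM in sepsis and had no read in control libraries 5, 6 and 7, so no fold is given (adjusted p = 0.000187). Tnf stood at 0.888, 1.35, 1.56 and 1.60 CPM against 0.134, 0.0471, 0.0443 and 0.0788 CPM (4.04 ± 0.36, adjusted p = 9.35e-05). Il1b, the inflammasome product that starts much of the hepatocyte response, read 28.9, 31.1, 41.0 and 71.3 CPM in sepsis against 3.21, 3.53, 3.94 and 2.70 CPM (3.70 ± 0.31, adjusted p = 7.28e-05). For both genes library 1 was the lowest sepsis pool and library 4 the highest.

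Not every member rose. Il33, an alarm signal stored in the nuclei of endothelial and stellate cells, fell from 39.9, 50.1, 51.3 and 43.6 CPM in control to 20.7, 17.4, 19.3 and 21.05 CPM in sepsis (-1.23 ± 0.10, adjusted p = 7.17e-05). Cxcl12, which holds cells in tissue through Cxcr4, fell from 69.6, 66.0, 73.9 and 67.1 to 35.2, 32.9, 27.04 and 32.9 CPM (-1.11 ± 0.09, adjusted p = 6.35e-05). Both genes had sepsis pools that were close together. The interferon-induced Cxcl11 was lower as well (-1.67 ± 0.28, adjusted p = 0.00149). Cxcl1, a neutrophil attractant like Cxcl2, was not called. It read 153, 182, 218 and 85.9 CPM in sepsis and 170.4, 168, 151 and 169 CPM in control, so all 4 controls lay inside the range of the sepsis pools.

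The NF-kB pathway rose in the genes for its own inhibitors and subunits. Among 24 genes of the NF-kB pathway 15 were called higher and 0 lower, with a median log2 fold change of 0.40. The 250 bases before the gene start are shown for 3 genes that were called higher. These are Il6 (chr4:5894576-5894825, minus strand), Nfkbia, the inhibitor IkB-alpha (chr6:78597073-78597322, minus strand), and Icam1, the adhesion molecule that arrests neutrophils on endothelium (chr8:27829595-27829844, plus strand). They were chosen from the called members of 5 inflammation lists because each holds a match to an NF-kB type motif, GGANTTTCC on either strand, and the matches are in capitals. The sequences are those of RefSeq on GRCr8, a later build than the rn5 named in the submitters' processing notes, and are written in the sense of the gene.
Il6: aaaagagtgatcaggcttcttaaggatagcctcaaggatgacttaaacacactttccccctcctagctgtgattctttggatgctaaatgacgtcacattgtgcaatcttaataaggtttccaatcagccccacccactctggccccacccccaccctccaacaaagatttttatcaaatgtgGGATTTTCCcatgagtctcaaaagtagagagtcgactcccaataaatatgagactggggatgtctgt
Nfkbia: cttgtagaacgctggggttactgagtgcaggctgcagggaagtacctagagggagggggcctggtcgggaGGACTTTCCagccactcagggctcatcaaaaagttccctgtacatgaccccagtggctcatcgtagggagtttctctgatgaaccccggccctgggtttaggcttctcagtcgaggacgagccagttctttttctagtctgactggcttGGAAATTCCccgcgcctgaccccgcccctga
Icam1: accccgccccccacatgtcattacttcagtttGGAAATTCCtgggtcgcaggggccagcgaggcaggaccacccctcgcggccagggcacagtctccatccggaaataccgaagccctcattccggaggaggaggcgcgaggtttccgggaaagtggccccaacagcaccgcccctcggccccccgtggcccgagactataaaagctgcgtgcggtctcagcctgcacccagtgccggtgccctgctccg
The 300-base windows from 250 before to 50 after the gene start were searched. Of 52 called-higher members of the chemokine, cytokine, NF-kB, Toll-like receptor and endothelial activation lists, 33 had a single window, and 5 of these held the motif (Cxcl10, Icam1, Il6, Nfkb2 and Nfkbia). Among all 33469 windows 1.28% held it, and among 7431 windows of tested genes 1.39%. A match in these letters is a description and is not evidence that a factor was bound.

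Nfkbia read 44.6, 51.7, 68.3 and 66.2 CPM in sepsis and 27.2, 27.8, 27.1 and 25.6 CPM in control (1.10 ± 0.13, adjusted p = 0.00033), and Icam1 134, 139, 135 and 173 against 65.8, 63.3, 58.3 and 59.9 CPM (1.23 ± 0.10, adjusted p = 6.35e-05). The groups overlapped for neither gene. The largest rise of the pathway belonged to Tifa, an adaptor that joins TRAF6 to the sensing of bacterial sugars. It stood at 162, 168, 83.2 and 141 CPM in the sepsis pools and 6.29, 5.93, 5.003 and 4.73 CPM in control, a log2 fold change of 4.67 ± 0.24 (adjusted p = 1.05e-05). Here library 3 was the lowest pool and still lay more than 10-fold above every control. Nfkb2, a subunit of the non-canonical pathway, read 24.9, 27.9, 29.4 and 44.7 against 11.5, 9.98, 10.1 and 9.99 CPM (1.61 ± 0.18, adjusted p = 0.000209). Birc3, an inhibitor of apoptosis induced by NF-kB, read 10.3, 16.6, 19.7 and 23.3 against 6.20, 6.497, 5.36 and 6.48 CPM (1.51 ± 0.22, adjusted p = 0.000815). Nfkbiz, another inducible inhibitor, was not called, at 74.8, 89.1, 111 and 53.6 CPM in sepsis against 96.7, 94.8, 72.6 and 96.2 CPM.

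Receptors for bacterial products moved both ways. Of 17 Toll-like receptor and adaptor genes 5 rose and 3 fell, a share of 47.1% called that is below that of all genes, and the median was 0.10. Cd14, which hands lipopolysaccharide to Tlr4, read 120.1, 147, 271 and 339.7 CPM in sepsis and 30.9, 33.3, 24.97 and 34.0 CPM in control (2.83 ± 0.32, adjusted p = 0.00025). Its level was highest in libraries 3 and 4. Tlr2, the receptor of bacterial lipoproteins, rose (1.97 ± 0.17, adjusted p = 8.8e-05), as did its partner Tlr1 (1.86 ± 0.24, adjusted p = 0.000409). Tlr3, the endosomal receptor of double-stranded RNA, fell from 6.51, 5.60, 6.95 and 5.73 CPM to 1.59, 1.22, 1.16 and 2.29 CPM (-1.98 ± 0.21, adjusted p = 0.00017). Sigirr, a brake on interleukin-1 and Toll-like receptors, fell from 25.3, 21.2, 23.6 and 23.6 CPM to 10.98, 13.6, 9.06 and 8.01 CPM (-1.17 ± 0.15, adjusted p = 0.000445). Tlr4 itself was not called (0.39 ± 0.19, adjusted p = 0.119), except without library 3 (0.52, adjusted p = 0.0466).

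Genes of cytokine signaling, with several of its feedback inhibitors, were more often higher than lower. Of 24 genes for receptors, JAK kinases, STAT factors and SOCS proteins, 13 rose and 3 fell (median 0.28). Jak2 read 81.1, 73.4, 62.7 and 73.3 CPM in sepsis and 26.5, 24.4, 26.6 and 24.9 CPM in control, with little spread in either group (1.505 ± 0.09, adjusted p = 1.75e-05). Cish rose from 39.4, 40.9, 25.01 and 28.5 to 110.4, 87.1, 78.0 and 100.2 CPM and Socs2, like Cish a target of STAT5, from 23.1, 21.1, 22.5 and 19.3 to 50.1, 40.9, 69.99 and 77.0 CPM. Their log2 fold changes were 1.49 ± 0.18 and 1.47 ± 0.19, with adjusted p of 0.0003 and 0.000418. Socs3, the inhibitor that STAT3 induces, read 128, 154, 208 and 117 CPM against 68.4, 74.0, 54.8 and 72.9 CPM (1.17 ± 0.18, adjusted p = 0.00103). Il1r1, the signaling receptor of interleukin-1, fell (-0.61 ± 0.15, adjusted p = 0.0103).

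Genes induced by interferon moved both ways. Among 37 tested, 12 rose and 9 fell with a median of 0.16, and without control library 5 the list had 13 calls. Usp18, which removes ISG15 and blocks the interferon receptor, read 25.3, 21.6, 30.8 and 50.2 CPM in sepsis against 5.13, 5.41, 4.47 and 3.66 CPM (2.79 ± 0.27, adjusted p = 0.000129). Gbp2, a GTPase that attacks vacuoles with bacteria, rose (1.54 ± 0.21, adjusted p = 0.000544). Stat2, a core part of the type I interferon signal, fell from 99.5, 109, 109 and 106 CPM to 72.5, 53.7, 46.9 and 54.3 CPM (-0.90 ± 0.12, adjusted p = 0.000602), and Parp14 fell by a similar amount (-0.82 ± 0.09, adjusted p = 0.000247). In the inflammasome and necroptosis list 5 of 11 rose and 3 fell. Nlrp3, the sensor, rose (1.37 ± 0.21, adjusted p = 0.000978), while Gsdmd, which forms the pore of pyroptosis, fell from 8.83, 7.86, 9.47 and 8.57 CPM to 3.46, 3.24, 3.47 and 3.20 CPM (-1.37 ± 0.10, adjusted p = 4.01e-05). The sepsis values of Gsdmd lay within a narrow band.

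Immediate-early transcription factors, which cells switch on within minutes of a stimulus, rose in 14 of 24 cases and fell in 2, with a median of 0.82. Atf3, a stress-induced repressor, read 38.6, 151, 593 and 49.5 CPM in sepsis and 18.4, 15.5, 10.3 and 17.8 CPM in control. Library 3 stood far above the other pools. The log2 fold change was 3.74 ± 0.85 (adjusted p = 0.00634), and it was 2.35 without library 3 (adjusted p = 0.00429). Maff, a small partner of NRF2, read 27.1, 76.8, 211 and 50.7 against 14.7, 14.5, 9.47 and 14.7 CPM in the same order of pools (2.77 ± 0.57, adjusted p = 0.00395). Fosl1, a FOS family member of AP-1, followed another order, with 0.561, 1.16, 2.57 and 9.04 CPM in sepsis and 0.0892, 0.377, 0.0443 and 0.217 CPM in control (4.11 ± 0.96, adjusted p = 0.0073). There the highest pool was library 4. Without library 3 the log2 fold change of Maff was 1.94, and without library 4 that of Fosl1 was 2.91, and both were still called. Nr4a1, an orphan receptor induced by stress and hormones, rose from 18.4, 19.5, 6.82 and 23.8 to 69.7, 68.4, 94.4 and 163 CPM (2.52 ± 0.40, adjusted p = 0.00119), also with its highest value in library 4. Klf10, a target of TGF-beta, fell from 37.6, 37.3, 40.9 and 43.6 to 11.03, 17.9, 20.8 and 10.9 CPM (-1.39 ± 0.21, adjusted p = 0.000817).

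Of 31 positive acute-phase genes 18 rose and 1 fell, and the median log2 fold change was 0.29. Several large rises came from genes that were low in control liver. Lcn2, which withholds iron from bacteria, read 1299, 1124, 1260.1 and 1869.9 CPM in sepsis and 175, 138, 169 and 124 CPM in control (3.20 ± 0.19, adjusted p = 1.82e-05). All sepsis pools were above all controls by a wide margin. Reg3b, a lectin that kills bacteria, read 23.4, 20.5, 10.3 and 22.2 CPM against 0.624, 0.659, 0.487 and 0.512 CPM (5.08 ± 0.30, adjusted p = 1.9e-05). Slpi, an inhibitor of neutrophil elastase, read 26.2, 37.4, 55.6 and 76.5 CPM against 5.53, 5.74, 7.30 and 5.67 CPM (3.01 ± 0.31, adjusted p = 0.000176). In numbers of reads, the abundant plasma proteins gained most. Hpx, which binds free heme, read 28689, 28138, 28914 and 31903 CPM in sepsis and 21542, 21311, 21149 and 21341 CPM in control, a log2 fold change of 0.46 ± 0.06 (adjusted p = 0.000492). The fibrinogen chains Fga, Fgb and Fgg rose by 0.23 ± 0.06, 0.27 ± 0.06 and 0.22 ± 0.05 (adjusted p = 0.00901, 0.00472 and 0.00832), with pools that lay close together in both groups. The call of Fgg was lost with no limit on low counts (0.18, adjusted p = 0.0521). Agt, the precursor of angiotensin, read 8579, 11326, 10735 and 7034 CPM against 3066, 3549, 2387 and 3544 CPM (1.59 ± 0.18, adjusted p = 0.00023), with libraries 2 and 3 the highest. Hp, the haptoglobin gene, was not called (0.09 ± 0.07, adjusted p = 0.321), and neither was C3 (0.05 ± 0.10, adjusted p = 0.704). Saa4 fell from 3783, 3741, 3888 and 3890.5 CPM to 2809, 2809, 2883 and 2190.4 CPM (-0.52 ± 0.09, adjusted p = 0.0021).

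The 250 bases before the start of Fgb (chr2:170700876-170701125, minus strand) are shown because fibrinogen is the classic product of STAT3 in the liver. The capitals mark the match to a STAT type motif, TTCNNNGAA.
Fgb: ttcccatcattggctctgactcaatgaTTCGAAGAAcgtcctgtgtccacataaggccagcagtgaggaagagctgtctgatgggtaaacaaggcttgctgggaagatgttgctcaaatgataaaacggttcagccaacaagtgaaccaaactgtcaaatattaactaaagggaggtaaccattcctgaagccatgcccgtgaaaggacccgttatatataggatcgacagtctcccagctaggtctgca
Of 18 positive acute-phase genes called higher, 12 had a single window and 3 of these held the motif (Fgb, Hamp and Reg3b), against 8.87% of all windows and 6.7% of those of tested genes.

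Plasma proteins known to fall in the acute phase were lower in 7 of 18 cases and higher in 1, with a median of -0.12. The share called, 44.4%, was below that of all genes. Hrg, a plasma protein that binds heparin and plasminogen, fell from 868, 871, 920.2 and 966 CPM in control to 543, 536, 516 and 471 CPM in sepsis (-0.81 ± 0.07, adjusted p = 0.000108). Rbp4, the carrier of retinol, fell from 2236, 2176, 2268 and 2171 to 1452, 1466, 1334 and 996 CPM (-0.75 ± 0.12, adjusted p = 0.00109). Apoa1, the main protein of HDL, fell from 2438, 2123, 2110.5 and 2153 to 1322, 921, 1289 and 1771 CPM (-0.73 ± 0.17, adjusted p = 0.00706). Alb fell by a small amount, with 70739, 65704, 72572 and 78305 CPM in sepsis and 81842, 84405, 85822 and 88857 CPM in control (-0.25 ± 0.07, adjusted p = 0.0158). Ttr and Tf, other known members, were not called (-0.11 ± 0.07 and -0.12 ± 0.06).

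Complement and coagulation showed no common direction. Of 24 complement genes 5 rose and 6 fell, with a median of 0.06 and a called share of 45.8%, below that of all genes. The number of complement calls dropped from 11 to 7 without control library 5 and to 6 without 7 or 8. C9, the pore-forming component, rose from 1563, 1473, 1463 and 1511 to 2326, 2103, 2421 and 4339 CPM (0.90 ± 0.21, adjusted p = 0.00732), highest in library 4. Of 29 coagulation genes 9 rose and 8 fell, with 10 or 11 calls in place of 17 without control library 5, 6, 7 or 8. The medians of both lists changed sign under scaling by library totals without TMM factors. The coagulation rises included regulators made by endothelium. Thbd, which turns thrombin into an activator of protein C, read 32.0, 36.2, 39.4 and 85.6 CPM in sepsis against 12.6, 12.9, 11.1 and 12.7 CPM (1.96 ± 0.30, adjusted p = 0.000915). Plat, the tissue plasminogen activator, read 8.69, 14.2, 26.9 and 95.0 CPM against 6.87, 6.40, 5.49 and 5.18 CPM (2.60 ± 0.68, adjusted p = 0.012). Much of this came from library 4, and without it the log2 fold change of Plat was 1.48 (adjusted p = 0.00718). Serpind1, heparin cofactor II from hepatocytes, fell from 499, 488, 532 and 535 to 228, 217, 219 and 178 CPM (-1.29 ± 0.09, adjusted p = 3.97e-05), and F3, tissue factor, fell as well (-1.64 ± 0.27, adjusted p = 0.00139).

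**Figure D2:**
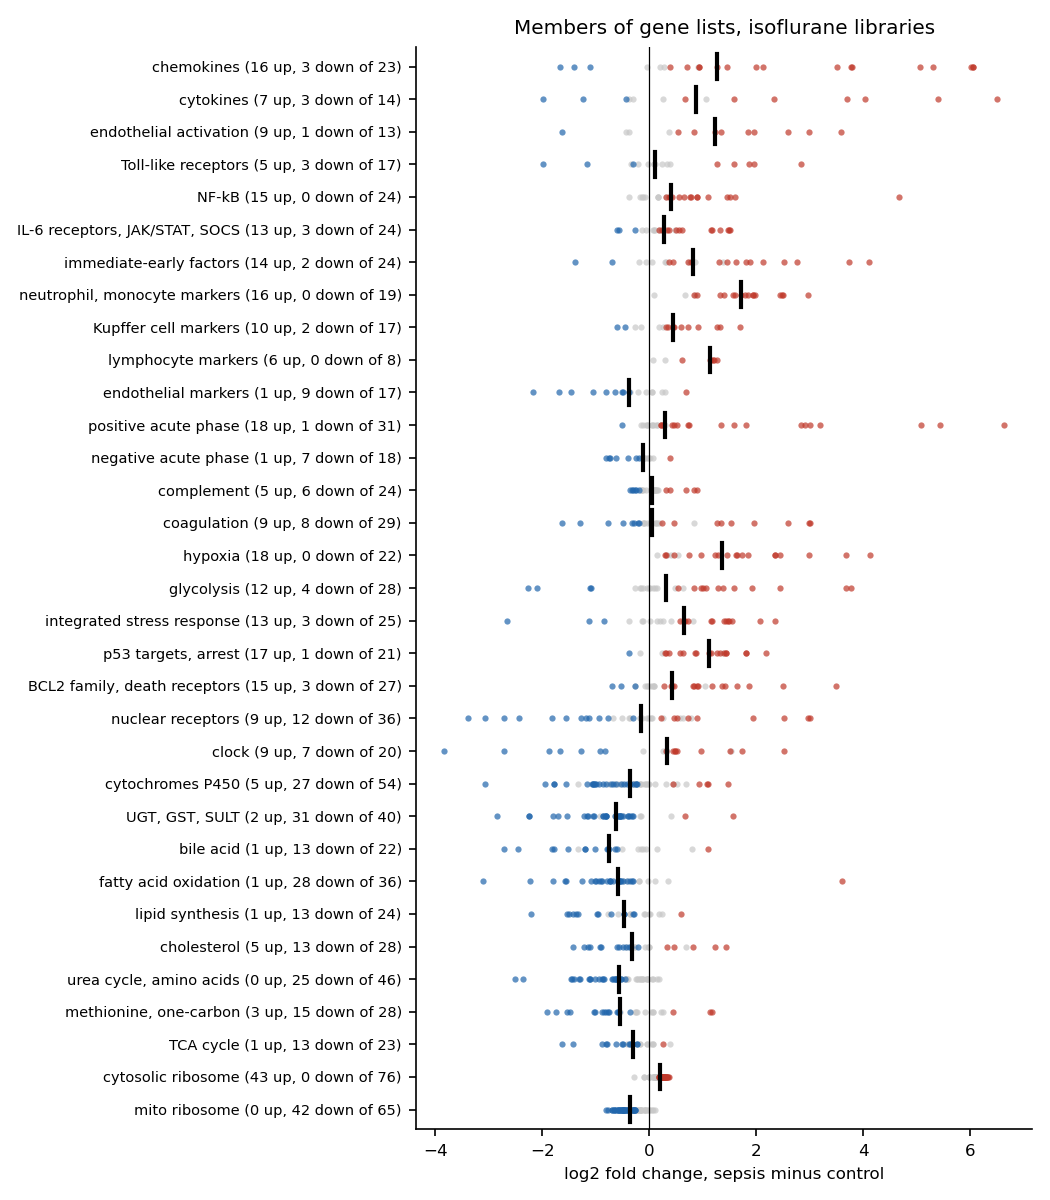
Log2 fold change of every tested member of 33 gene lists, sepsis minus control, with red for called higher, blue for called lower and grey for not called. The black bar is the median of the list, which reached 1.72 for neutrophil and monocyte markers and -0.76 for bile acid genes.

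Markers of white blood cells rose with the inflammatory genes. Of 19 neutrophil and monocyte markers tested, 16 rose and 0 fell, with a median of 1.72. The 27 markers in the files other than Hp, which hepatocytes make, summed to 112 to 235 CPM in sepsis and 55.0 to 63.0 CPM in control, and only Prtn3 had no read in any of the 8 libraries. Itgam, the integrin chain CD11b, read 7.15, 8.81, 14.9 and 17.8 CPM in sepsis and 1.34, 1.41, 2.17 and 1.36 CPM in control (2.96 ± 0.32, adjusted p = 0.000209). S100a8 and S100a9, the subunits of calprotectin, read 9.63, 23.8, 36.8 and 29.5 CPM and 13.1, 29.0, 48.04 and 37.98 CPM in sepsis against 4.37, 4.14, 5.18 and 4.12 CPM and 7.67, 8.15, 7.84 and 8.65 CPM. For these 3 genes library 1 was the lowest pool and no sepsis pool overlapped the controls. Lymphocyte markers rose in 6 of 8 cases (median 1.14), and the sum over 22 of them was 35.7 to 57.9 CPM in sepsis and 24.7 to 29.8 CPM in control. Only markers with enough counts were tested, so a marker very low in control could enter through the sepsis libraries alone. The counts of rises thus lean upward, while the sums cover untested markers too. In tissue RNA, more or fewer cells of a type and more or less RNA per cell cannot be told apart. How far these cells account for the rise of the chemokines, cytokines and receptors above was not tested.

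Resident cells changed in a mixed way. Of 17 Kupffer cell and macrophage markers 10 rose and 2 fell (median 0.44). Lyz2, lysozyme, rose from 10.7, 10.6, 11.997 and 11.1 to 16.5, 29.1, 33.1 and 32.7 CPM (1.33 ± 0.20, adjusted p = 0.000887), and Marco, a scavenger receptor, from 40.0, 45.1, 44.3 and 30.8 to 66.4, 56.1, 55.5 and 84.6 CPM (0.72 ± 0.16, adjusted p = 0.00671). Lyz2 is also in the list of neutrophil and monocyte markers, so its rise is not particular to resident cells. Clec4f, which is found on Kupffer cells alone, fell from 88.9, 89.9, 107 and 86.9 to 64.0, 51.7, 60.4 and 70.1 CPM (-0.60 ± 0.11, adjusted p = 0.00213). Liver endothelial cell markers fell in 9 of 17 cases and rose in 1, with a median of -0.38. Kdr, the VEGF receptor 2, fell from 20.2, 22.4, 31.2 and 24.7 to 5.56, 4.77, 6.39 and 5.09 CPM (-2.17 ± 0.16, adjusted p = 3.97e-05) with all pools at about the same level. Ehd3 fell from 43.3, 43.4, 56.0 and 45.3 to 25.9, 17.3, 6.495 and 8.35 CPM (-1.69 ± 0.38, adjusted p = 0.00584), most in libraries 3 and 4. Genes of activated endothelium, in contrast, rose in 9 of 13 cases (median 1.23). Selp, the P-selectin that catches rolling leukocytes, read 1.36, 2.69, 2.52 and 3.20 CPM against 0.268, 0.188, 0.133 and 0.197 CPM (3.59 ± 0.34, adjusted p = 0.000111). Stellate cell and fibroblast markers rose in 9 of 16 cases and fell in 1, with Dcn, a matrix proteoglycan, at 17.6, 24.8, 23.5 and 31.0 CPM against 7.32, 7.91, 6.91 and 7.23 CPM (1.72 ± 0.16, adjusted p = 0.000109) and Lrat, the retinol-storing enzyme of quiescent stellate cells, lower (-0.64 ± 0.11, adjusted p = 0.002). None of 6 red blood cell markers and none of 4 brain markers was called. The summed red blood cell markers were 387 to 488 CPM in sepsis and 381 to 564 CPM in control.

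Of 8 genes of class II antigen presentation 5 were called higher and 0 lower, with a median of 0.54. The list means of libraries 1 to 4 were 0.42, -0.23, -0.04 and -0.09, so that of library 1 alone lay well above the control level, and 1 member that was not called stood at -1.80. Cd74, the invariant chain, read 108, 118, 124 and 126 CPM in sepsis and 72.1, 67.8, 84.6 and 65.1 CPM in control (0.72 ± 0.10, adjusted p = 0.000512). RT1-Ba and RT1-Da, the alpha chains of the rat class II molecules, rose by 0.72 ± 0.10 and 0.64 ± 0.12 on the log2 scale.

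Matrix proteases and their inhibitors rose in 12 of 31 cases and fell in 2, a called share of 45.2% that is below that of all genes. Mmp3, stromelysin, read 1.82, 2.57, 4.43 and 5.61 CPM in sepsis and 0.624, 0.424, 0.133 and 0.512 CPM in control (3.03 ± 0.45, adjusted p = 0.000869). Adamts4, an aggrecanase, read 22.8, 33.4, 54.1 and 63.8 CPM against 7.18, 6.17, 4.29 and 5.52 CPM (2.91 ± 0.33, adjusted p = 0.000227). For both genes libraries 3 and 4 were the highest. Thbs1, thrombospondin-1, read 65.9, 76.2, 108 and 139 CPM against 5.84, 9.23, 3.28 and 8.65 CPM (3.84 ± 0.35, adjusted p = 0.000109). Tnfaip6, a hyaluronan-binding protein that limits neutrophil entry, read 10.9, 10.2, 22.5 and 45.1 CPM against 1.65, 1.79, 0.753 and 1.87 CPM (3.83 ± 0.54, adjusted p = 0.000645, and 3.23 without library 4). Among genes of nitric oxide and prostanoids 11 of 21 rose and 2 fell. Nos2, the inducible nitric oxide synthase, read 3.18, 8.75, 13.8 and 6.12 CPM against 0.178, 0.235, 0.0885 and 0.335 CPM, and Ptgs2, cyclooxygenase-2, 1.45, 2.33, 3.02 and 1.43 CPM against 0.268, 0.0471, 0.177 and 0.118 CPM (3.76 ± 0.42, adjusted p = 0.00023). Havcr1, best known as the kidney injury molecule KIM-1, was among the 12 largest rises without overlap, once genes whose mean log2 CPM lay below 1 were set aside. It read 32.8, 30.4, 23.9 and 27.4 CPM in sepsis and 0.624, 1.08, 0.443 and 1.18 CPM in control, with the sepsis pools close together (5.02 ± 0.25, adjusted p = 1.01e-05).

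**Figure D3:**
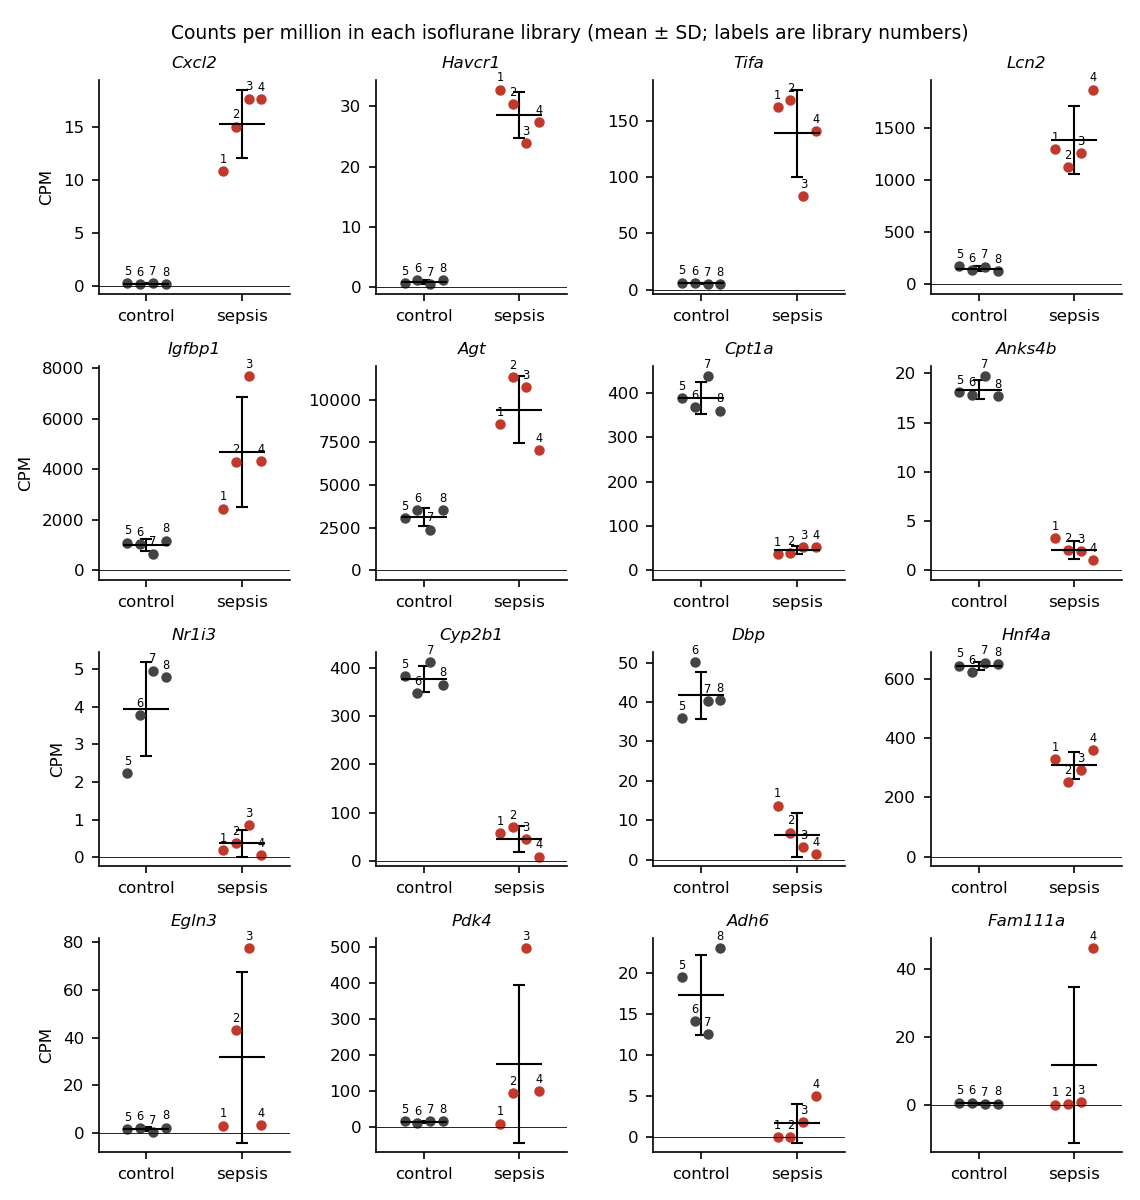
CPM of 16 genes in each of the 4 control libraries (grey, 5 to 8) and the 4 sepsis libraries (red, 1 to 4), with the mean and SD of each group. Havcr1, Tifa and Lcn2 are high in all sepsis pools, Cpt1a and Anks4b low in all of them, whereas Egln3 and Pdk4 are highest in library 3 and Fam111a is high in library 4 alone.

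Genes of the response to low oxygen rose more uniformly than most lists, with 18 of 22 called higher and 0 lower (median 1.37), yet their size differed greatly between pools. Averaged over the list, sepsis libraries 1 to 4 lay 0.72, 1.58, 2.26 and 0.71 above the control mean on the log2 scale. Libraries 2 and 3 were the high ones, and control library 7 lay below its group at -0.39. The 250 bases before the gene start are shown for 3 members that hold the hypoxia-response core ACGTG, the letters at the center of sites bound by HIF-1. They are Slc2a1 (chr5:138002272-138002521, plus strand), Bnip3 (chr1:203154963-203155212, minus strand) and Ankrd37 (chr16:53001257-53001506, plus strand). Matches on either strand are in capitals, and CACGTG holds the core on both.
Slc2a1: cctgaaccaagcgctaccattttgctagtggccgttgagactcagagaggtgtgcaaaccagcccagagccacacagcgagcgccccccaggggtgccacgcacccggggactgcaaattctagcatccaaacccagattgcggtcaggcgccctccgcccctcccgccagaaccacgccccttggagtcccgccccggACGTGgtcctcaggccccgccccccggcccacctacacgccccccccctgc
Bnip3: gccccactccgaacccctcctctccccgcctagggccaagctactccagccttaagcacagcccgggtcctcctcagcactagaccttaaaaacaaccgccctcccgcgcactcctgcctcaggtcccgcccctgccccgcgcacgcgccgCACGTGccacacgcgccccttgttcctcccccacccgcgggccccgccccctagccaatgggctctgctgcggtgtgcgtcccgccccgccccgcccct
Ankrd37: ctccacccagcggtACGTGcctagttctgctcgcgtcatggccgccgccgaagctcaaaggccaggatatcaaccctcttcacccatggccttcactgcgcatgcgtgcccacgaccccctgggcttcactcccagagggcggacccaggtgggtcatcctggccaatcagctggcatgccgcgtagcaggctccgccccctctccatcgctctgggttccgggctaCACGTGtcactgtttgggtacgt
Of the 18 members called higher 13 had a single window, and 8 of these held the core, against 19.3% of all windows and 26.3% of those of tested genes. So short a motif is found in many windows.

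Slc2a1, the glucose transporter GLUT1, read 19.3, 73.2, 168 and 25.3 CPM in sepsis and 5.40, 7.06, 2.52 and 7.21 CPM in control (3.67 ± 0.71, adjusted p = 0.00301). Egln3, a prolyl hydroxylase that marks HIF for destruction, read 3.27, 43.0, 77.3 and 3.55 CPM against 1.74, 2.17, 0.664 and 2.44 CPM (4.13 ± 1.04, adjusted p = 0.0104), a call that was lost with limma-voom (3.01, adjusted p = 0.111). Libraries 1 and 4 were only a little above the controls, and libraries 2 and 3 more than 10-fold above them. Bnip3, a mitophagy receptor, followed with 144, 233.8, 419.6 and 107 CPM against 75.3, 78.0, 58.0 and 79.2 CPM (1.64 ± 0.38, adjusted p = 0.00678). Ankrd37, a small HIF target, read 7.76, 10.8, 14.6 and 6.69 CPM against 3.66, 2.87, 1.95 and 3.41 CPM (1.73 ± 0.28, adjusted p = 0.00118). Vegfa read 206, 629, 1427 and 300.4 CPM against 181, 182, 148 and 198 CPM (1.85 ± 0.53, adjusted p = 0.0173), with library 1 near the control level. Without library 3 its log2 fold change was 1.10, and without control library 7 the call was lost (adjusted p = 0.0522). Adm, adrenomedullin, a vasodilator, read 2.43, 5.26, 13.7 and 1.77 CPM against 1.52, 0.847, 1.33 and 0.926 CPM (2.35 ± 0.62, adjusted p = 0.0128). Without library 3 the log2 fold changes were 2.80 for Slc2a1, 3.18 for Egln3 and 1.46 for Adm, all still called. Hif1a itself, which is controlled mainly through the stability of its protein, read 72.1, 76.6, 89.3 and 119 CPM against 51.7, 55.8, 53.5 and 51.5 CPM (0.75 ± 0.15, adjusted p = 0.00318).

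Glycolysis genes moved in both directions. Of 28 genes 12 rose and 4 fell (median 0.32), and the list means of libraries 1 to 4 were 0.12, 0.53, 0.89 and 0.10. Hk2, a hexokinase of growing and oxygen-starved tissue, rose from 1.38, 1.13, 1.24 and 1.18 to 3.32, 6.55, 11.9 and 5.09 CPM (2.44 ± 0.37, adjusted p = 0.000914). Slc16a3, the lactate exporter MCT4, read 1.64, 4.10, 11.2 and 2.63 CPM against 0.491, 0.424, 0.310 and 0.256 CPM (3.78 ± 0.66, adjusted p = 0.0018, and 2.95 without library 3). Pfkfb1, the liver isozyme that sets the balance of glycolysis and gluconeogenesis, fell from 35.4, 42.5, 44.6 and 44.0 to 14.4, 10.3, 6.39 and 3.43 CPM (-2.26 ± 0.35, adjusted p = 0.000978). Glucose output and glycogen genes fell in 9 of 21 cases and rose in 2 (median -0.36), a called share of 52.4% that is near that of all genes. G6pc, the last step of glucose release, fell from 117, 79.3, 144 and 123 to 12.3, 26.2, 45.9 and 70.1 CPM (-1.59 ± 0.45, adjusted p = 0.0167). Pck1, which controls gluconeogenesis, was not called, with 1675, 1525, 3543 and 4954 CPM in sepsis against 1739, 1622, 1613 and 1834 CPM, libraries 1 and 2 being below or among the controls and 3 and 4 above them. It was called without library 1 (0.97, adjusted p = 0.0302) or library 2 (0.99, adjusted p = 0.0283).

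Stress and growth arrest genes had their largest values in library 3, as those of hypoxia did. Of 21 p53 targets and arrest genes 17 rose and 1 fell, with a median of 1.11 and list means of 0.43, 0.93, 1.40 and 0.65 in libraries 1 to 4. Cdkn1a, the inhibitor p21, read 65.1, 168, 291 and 138 CPM in sepsis and 42.2, 31.2, 32.5 and 38.8 CPM in control (2.19 ± 0.38, adjusted p = 0.0018). Btg2, another brake on division, read 785, 1626, 2826 and 1104 CPM against 502, 478, 319 and 503 CPM (1.82 ± 0.36, adjusted p = 0.00349). The integrated stress response list had 13 of 25 higher and 3 lower (median 0.66). Ddit4, an inhibitor of mTOR, read 16.03, 38.9, 125 and 11.4 CPM against 9.32, 9.65, 8.81 and 9.65 CPM (2.35 ± 0.68, adjusted p = 0.0182). Without library 3 its log2 fold change was 1.23 (adjusted p = 0.0238), and the call was lost without control library 7 (adjusted p = 0.0509) and with limma-voom (1.71, adjusted p = 0.0679). Fgf21, the fasting hormone of the liver, went the other way and fell from 28.6, 18.5, 32.4 and 25.8 CPM to 2.01, 3.79, 8.51 and 2.23 CPM (-2.66 ± 0.41, adjusted p = 0.00103). Among BCL2 family and death receptor genes 15 of 27 rose and 3 fell. Bcl2l11, the killer protein BIM, read 0.654, 5.75, 12.03 and 1.20 CPM against 0.401, 0.518, 0.221 and 0.532 CPM, and the protective Bcl2l1 read 29.5, 61.1, 88.9 and 54.9 CPM against 19.98, 18.3, 16.4 and 20.1 CPM (1.65 ± 0.28, adjusted p = 0.00158), so members of opposite function rose in the same pools. The log2 fold change of Bcl2l11 was 3.49 ± 0.89 (adjusted p = 0.0106), and 2.50 without library 3, where that of Fgf21 was -3.31. With limma-voom the call of Bcl2l11 was lost (2.63, adjusted p = 0.0769).

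The antioxidant list was led by Sod2, the manganese superoxide dismutase of mitochondria and a classic NF-kB target. It read 1238, 1276, 1027 and 1525 CPM in sepsis and 194, 200.3, 158 and 156 CPM in control (2.84 ± 0.14, adjusted p = 1.04e-05). Its sepsis pools were alike, while those of Hmox1, heme oxygenase-1, were not, at 352, 1012, 2065 and 561 CPM against 244, 283, 137 and 303 CPM (2.04 ± 0.51, adjusted p = 0.00999, and 1.41 without library 3). Of 35 antioxidant and heme genes 6 rose and 12 fell, a called share of 51.4% that is near that of all genes. Alas1, the first enzyme of heme synthesis, fell from 150.3, 139, 164 and 151 to 70.6, 63.2, 73.7 and 71.4 CPM (-1.11 ± 0.08, adjusted p = 3.97e-05), and Cat, catalase, from 694, 683, 740.3 and 734 to 465, 495, 324 and 185 CPM (-0.96 ± 0.26, adjusted p = 0.0143), lowest in library 4. Nqo1, a standard NRF2 target, was not called (-0.41 ± 0.41, adjusted p = 0.432), except without library 4 (-0.92, adjusted p = 0.0415). In the list of iron, copper and zinc genes 14 of 30 rose and 7 fell. Hamp, the iron hormone hepcidin, rose from 356, 380.0, 356 and 208 to 728, 993, 1128 and 439.8 CPM (1.34 ± 0.29, adjusted p = 0.00541). Atp7b, the copper pump of hepatocytes, fell from 34.5, 36.3, 39.9 and 38.7 to 11.9, 11.5, 10.3 and 6.81 CPM (-1.88 ± 0.16, adjusted p = 7.28e-05).

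Transcription factors of the hepatocyte moved in both directions, 10 of 22 higher and 5 lower. Hnf4a, the central factor of hepatocyte genes, read 329.6, 253, 293 and 359 CPM in sepsis and 646, 624, 656 and 652 CPM in control, and no pool came near a control (-1.06 ± 0.11, adjusted p = 0.000155). Creb3l3, a membrane-bound factor of lipid and iron genes, fell from 269.6, 254, 281 and 279.9 to 103, 125, 144 and 74.2 CPM (-1.28 ± 0.18, adjusted p = 0.000603). Cebpd and Cebpb, C/EBP factors of the acute phase, rose to 40.2, 40.1, 43.5 and 35.4 CPM and 145, 175, 431 and 189 CPM from 15.7, 14.8, 11.3 and 11.1 CPM and 64.8, 87.1, 77.9 and 102 CPM (1.59 ± 0.13 and 1.501 ± 0.33). Of 36 nuclear receptors and cofactors 9 rose and 12 fell. Nr1i3, the xenobiotic receptor CAR, read 0.187, 0.367, 0.856 and 0.0572 CPM in sepsis against 2.23, 3.77, 4.96 and 4.79 CPM (-3.40 ± 0.51, adjusted p = 0.000858). Rxrg, a retinoid X receptor, fell from 2.85, 2.73, 2.70 and 3.51 to 0.140, 0.490, 0.705 and 0.0572 CPM (-3.08 ± 0.44, adjusted p = 0.000707). Nr1h4, the bile acid receptor FXR, fell from 32.1, 29.7, 40.5 and 31.1 to 9.12, 9.06, 12.2 and 7.61 CPM, and its target Nr0b2, the repressor SHP, from 1.20, 0.659, 1.51 and 1.26 to 0, 0.184, 0.352 and 0.172 CPM (-1.81 ± 0.16 and -2.71 ± 0.54). Library 3 had the smallest fall, and without it the values were -4.28 for Nr1i3, -3.73 for Rxrg and -3.35 for Nr0b2. Ppara, the fatty acid receptor, was not called. It read 6.78, 20.7, 45.7 and 6.92 CPM against 12.4, 14.2, 11.5 and 13.3 CPM, so that libraries 1 and 4 lay below every control and libraries 2 and 3 above.

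Clock genes were called in 16 of 20 cases, 9 higher and 7 lower. Dbp, an output factor of the clock, read 13.7, 6.86, 3.12 and 1.32 CPM in sepsis and 35.9, 50.1, 40.2 and 40.5 CPM in control (-2.72 ± 0.53, adjusted p = 0.00308). Per2, a repressor arm member, fell from 12.2, 18.6, 16.3 and 13.4 to 7.39, 5.26, 3.42 and 2.86 CPM (-1.66 ± 0.28, adjusted p = 0.00145), whereas Arntl, the activator BMAL1, rose from 10.6, 5.98, 9.96 and 9.48 to 11.6, 26.7, 43.7 and 37.5 CPM (1.73 ± 0.37, adjusted p = 0.00468). Library 1 was the sepsis pool nearest to control for Dbp, Per2 and Arntl alike, and without it the log2 fold change of Dbp was -3.49. Whether the time of day at harvest differed between pools is not given in the sources used here. Of 20 glucocorticoid targets 6 rose and 3 fell. Tsc22d3, the glucocorticoid-induced leucine zipper, fell from 25.4, 23.4, 23.3 and 22.8 to 13.8, 8.75, 10.6 and 8.92 CPM (-1.17 ± 0.14, adjusted p = 0.000324), while Igfbp1, a secreted inhibitor of IGF-1, rose from 1096, 1043, 664 and 1184 to 2446, 4303, 7706 and 4324 CPM (2.24 ± 0.33, adjusted p = 0.000801).

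Drug and hormone metabolism fell across enzyme families. Cytochrome P450 genes fell in 27 of 54 cases and rose in 5 (median -0.36), conjugating enzymes (UGT, GST and SULT families) fell in 31 of 40 and rose in 2 (median -0.62), and the alcohol and aldehyde dehydrogenases, carboxylesterases, flavin monooxygenases, aldo-keto reductases and epoxide hydrolases fell in 34 of 58 and rose in 2 (median -0.85). The share called lower in these lists stood well above the 24.4% of all genes. Cyp2b1, the standard target of CAR, fell from 384, 349, 413 and 366 CPM in control to 56.7, 69.5, 44.9 and 8.52 CPM in sepsis (-3.07 ± 0.50, adjusted p = 0.00138). Cyp2b2, its close copy, read 105, 75.7, 47.7 and 11.3 CPM against 216, 223, 244 and 245 CPM, and library 4 was the lowest pool for both. Reads of these near-identical genes could have been divided between them. Sult2a6, a sulfotransferase of steroids and bile acids, fell from 24.5, 27.6, 32.3 and 35.7 to 4.16, 5.88, 3.98 and 2.80 CPM (-2.84 ± 0.21, adjusted p = 4.11e-05). Sult1b1 fell from 441, 421, 469.1 and 429.8 to 112, 125, 103 and 29.4 CPM (-2.25 ± 0.37, adjusted p = 0.00135). Adh4, an alcohol dehydrogenase that also acts on retinol, fell from 3.17, 3.91, 4.69 and 4.29 to 0.187, 0.796, 0.705 and 0.686 CPM (-2.78 ± 0.32, adjusted p = 0.000244). The exceptions were few. Cyp7b1, an oxysterol hydroxylase, rose (1.10 ± 0.19, adjusted p = 0.00173), as did Gsto1, an omega class glutathione transferase (0.67 ± 0.07, adjusted p = 0.000187).

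Bile acid genes fell in 13 of 22 cases and rose in 1, with a median of -0.76. Baat, which joins bile acids to taurine and glycine, fell from 304, 273, 312 and 333 to 33.8, 29.0, 65.6 and 93.8 CPM (-2.46 ± 0.35, adjusted p = 0.00064), least in library 4. Slco2b1, an uptake transporter, fell from 119.9, 121, 139 and 127 to 59.6, 47.8, 41.9 and 27.4 CPM (-1.52 ± 0.20, adjusted p = 0.000467). Abcb11, the bile salt export pump, was not called (-0.11 ± 0.11, adjusted p = 0.432). ABC transporters as a family fell in 18 of 35 cases and rose in 6. The multidrug transporter genes Abcb1a and Abcb1b moved apart, with Abcb1a at 2.10, 3.24, 6.04 and 3.66 CPM in sepsis against 17.04, 15.2, 15.6 and 17 CPM (-2.11 ± 0.25, adjusted p = 0.000325) and Abcb1b at 28.3, 26.9, 52.5 and 97.7 CPM against 15.7, 12.4, 12.9 and 14.9 CPM (1.87 ± 0.39, adjusted p = 0.00417). These copies are alike in sequence, so their reads could have been divided unevenly. Pdzk1, a scaffold that holds transporters at the membrane, was, with the same limit on low levels, among the 12 largest falls, from 16.9, 17.9, 19.7 and 19.7 to 3.18, 2.57, 2.72 and 0.629 CPM (-3.01 ± 0.32, adjusted p = 0.000191).

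Of 36 genes of fatty acid oxidation 28 fell and 1 rose, and the other 7 were not called (median -0.59). Cpt1a, the gate of fatty acids into mitochondria, read 36.5, 38.7, 52.6 and 53.1 CPM in sepsis and 388, 368, 438 and 359.8 CPM in control (-3.10 ± 0.15, adjusted p = 1.01e-05). Crot, which shortens chains in peroxisomes for export, fell from 26.7, 24.7, 27.6 and 28.7 to 5.75, 4.59, 7.75 and 4.75 CPM (-2.23 ± 0.16, adjusted p = 3.97e-05), and Cpt2 from 36.1, 41.5, 45.6 and 46.5 to 13.6, 12.4, 15.7 and 15.7 CPM (-1.56 ± 0.11, adjusted p = 4.01e-05). For these 3 genes the sepsis pools were close together. The 1 member called higher was Pdk4, a kinase that shuts off pyruvate dehydrogenase. It read 9.54, 93.6, 498 and 100.3 CPM in sepsis and 15.3, 10.9, 15.9 and 15.4 CPM in control, so that library 1 lay below every control and library 3 more than 30-fold above their mean. Its log2 fold change of 3.60 ± 0.93 (adjusted p = 0.0116) became 2.23 without library 3 (adjusted p = 0.0202), and the call was lost with limma-voom (2.51, adjusted p = 0.0706).

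Lipid synthesis and lipoprotein genes fell in 13 of 24 cases and rose in 1 (median -0.47). Mttp, which loads lipid onto apolipoprotein B, fell from 193, 184, 210.3 and 195 to 68.8, 72.7, 65.9 and 69.3 CPM (-1.50 ± 0.07, adjusted p = 1.01e-05). The member that rose was Apob itself, from 10428, 10799, 11192 and 10807 to 15834, 13407, 15387 and 20953 CPM (0.60 ± 0.12, adjusted p = 0.00414). Cideb, a lipid droplet protein also needed for VLDL, fell from 84.9, 76.9, 90.3 and 85.1 to 38.2, 34.1, 24.2 and 18.99 CPM (-1.54 ± 0.20, adjusted p = 0.000404). In the cholesterol list 13 of 28 fell and 5 rose. Insig1, which holds back the sterol sensor SCAP, rose from 273, 242, 246 and 273 to 429.9, 651, 1073 and 636 CPM (1.43 ± 0.24, adjusted p = 0.0014), and Abca1, the cholesterol exporter, from 193, 207, 208 and 190.3 to 342, 301, 349.8 and 420.5 CPM (0.83 ± 0.10, adjusted p = 0.000379). Nsdhl, an enzyme late in cholesterol synthesis, fell from 220.3, 209, 230.0 and 218 to 120.0, 71.0, 64.8 and 72.4 CPM (-1.42 ± 0.18, adjusted p = 0.000427).

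Amino acid breakdown and the urea cycle fell without any called rise. Of 46 genes 25 were lower and 0 higher, with a median of -0.56 and list means of -0.68, -0.47, -0.39 and -1.22 in libraries 1 to 4. Gpt2, a mitochondrial alanine aminotransferase, fell from 63.1, 73.4, 77.4 and 78.0 to 16.2, 16.1, 12.6 and 6.23 CPM (-2.51 ± 0.26, adjusted p = 0.000162). Nags, whose product activates the first enzyme of the urea cycle, fell from 80.6, 86.6, 79.1 and 83.6 to 21.8, 14.2, 18.8 and 9.44 CPM (-2.35 ± 0.22, adjusted p = 0.00011). Cps1, that first enzyme, was not called, with 3609, 4508, 4922 and 1376 CPM in sepsis and 4886, 5715, 5644 and 5629 CPM in control, where library 4 alone was far below (-0.60 ± 0.32, adjusted p = 0.146). Without library 4 it was called, with a log2 fold change of -0.33 (adjusted p = 0.0333). Methionine and one-carbon genes fell in 15 of 28 cases and rose in 3 (median -0.55). Bhmt, which remethylates homocysteine with betaine, fell from 916, 929, 1102 and 1061 to 330.5, 441, 364 and 55.8 CPM (-1.75 ± 0.49, adjusted p = 0.0162). Again library 4 was the lowest. Nampt, the enzyme that sets the rate of NAD salvage and is also secreted, rose from 672, 703, 613 and 638 to 1373, 1463, 1704 and 1248 CPM (1.14 ± 0.10, adjusted p = 0.000101). In the TCA cycle 13 of 23 genes fell and 1 rose (median -0.31), and the largest falls were the cytosolic Idh1 (-1.63 ± 0.18, adjusted p = 0.000197) and Aco1 (-1.42 ± 0.12, adjusted p = 7.6e-05). Sepp1, the selenium carrier made by hepatocytes, fell from 3648, 3556, 3759.5 and 3536 CPM to 1916, 1608, 1197 and 872 CPM (-1.37 ± 0.21, adjusted p = 0.000961).

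Ribosomal proteins of the cytosol and of mitochondria moved in opposite directions. Of 76 cytosolic ribosomal protein genes 43 were called higher and 0 lower, but the changes were small, with a median of 0.20 and Rplp1 the largest (0.37 ± 0.07, adjusted p = 0.00304). That count rested on the scaling and on single libraries. It was 13 with scaling by library totals alone and 19 to 22 without library 2, 6, 7 or 8. Of 65 mitochondrial ribosomal protein genes 42 were lower and 0 higher (median -0.37). Mrpl15, of the large subunit, fell from 22.5, 23.4, 25.4 and 24.8 to 13.5, 14.6, 15.6 and 11.6 CPM (-0.80 ± 0.10, adjusted p = 0.000388). Ribosome assembly factors rose in 16 of 49 cases and fell in 1, with 10 or 11 calls under totals alone or without library 5, 6 or 7. Npm1, nucleophosmin, rose from 172, 182, 163 and 178 to 261, 321, 266 and 274 CPM (0.69 ± 0.08, adjusted p = 0.000347). Aminoacyl-tRNA synthetases fell in 11 of 34 cases and rose in 3, and Eprs, the enzyme for glutamate and proline, fell from 1556, 1496, 1658 and 1520.0 to 1039, 931, 785 and 664 CPM (-0.87 ± 0.13, adjusted p = 0.000905). Proteasome subunits were called in 9 of 37 cases (24.3%), below the 50.0% of all genes. The called shares of assembly factors (34.7%), tRNA synthetases (41.2%) and folding genes of the endoplasmic reticulum (34.4%) were below it too. Folding genes of the endoplasmic reticulum rose in 10 of 32 cases and fell in 1 (median 0.26). They were highest in library 1, where the list mean was 0.48, and near control in library 3, at 0.01, and the number of calls was 20 without library 3 and 6 without control library 6, 7 or 8. Creld2, induced by misfolded protein, read 393, 274, 173 and 248 CPM in sepsis and 162, 164, 144 and 145 CPM in control (0.82 ± 0.21, adjusted p = 0.0107).

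**Figure D4:**
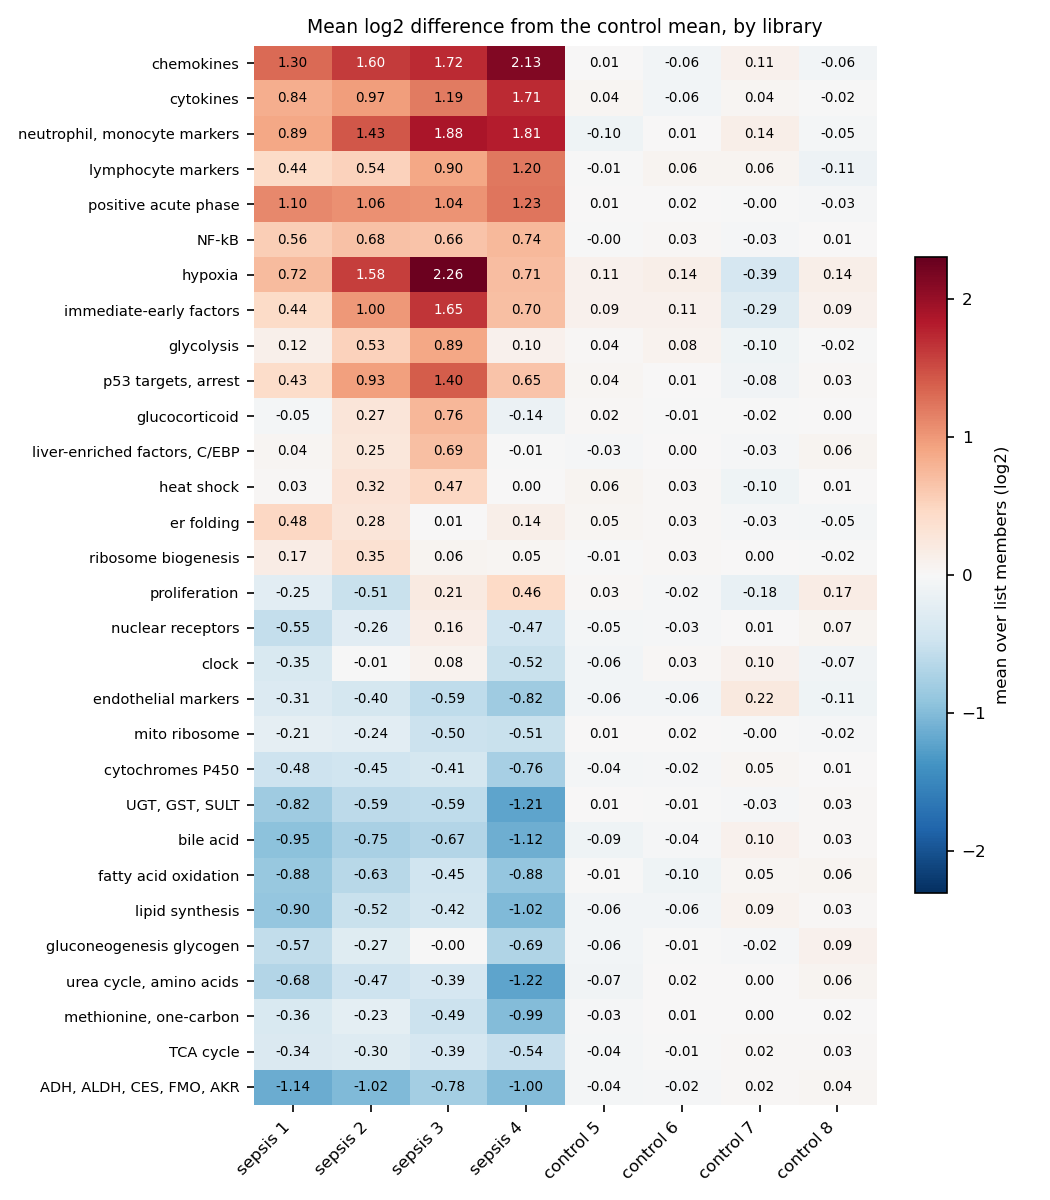
Mean over the tested members of each gene list of the log2 difference between a library and the mean of the 4 control libraries, for the 4 sepsis and the 4 control libraries. Hypoxia, immediate-early and glycolysis genes are highest in sepsis library 3 (2.26, 1.65 and 0.89), and urea cycle and conjugation genes lowest in sepsis library 4 (-1.22 and -1.21).

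The 4 sepsis pools differed from each other more than the 4 control pools did. The distance of a library was taken as the median over genes of the absolute log2 difference from the mean of the other 3 libraries of its group. It was 0.229, 0.168, 0.214 and 0.235 in sepsis libraries 1 to 4, and 0.0813, 0.0754, 0.103 and 0.0751 in control libraries 5 to 8. The groups did not overlap. The means were 0.211 ± 0.030 and 0.0836 ± 0.0129 (SD, n = 4 each), a ratio of 2.53. A two-sided permutation of these fixed distances over the 70 splits gave p = 0.0286, the smallest such a design allows. Distances within a group share libraries and are not independent, so this p is not an exact measure of the difference in spread. The SD of log2 CPM over the 4 libraries had a median of 0.236 in sepsis and 0.0961 in control and was larger in sepsis in 86.7% of genes. An SD above 1 was seen in 261 genes in sepsis and 17 in control. Between 2 sepsis pools 340 to 1024 genes differed by more than 2-fold, fewest between libraries 1 and 2, and between 2 control pools 42 to 145.

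**Figure D5:**
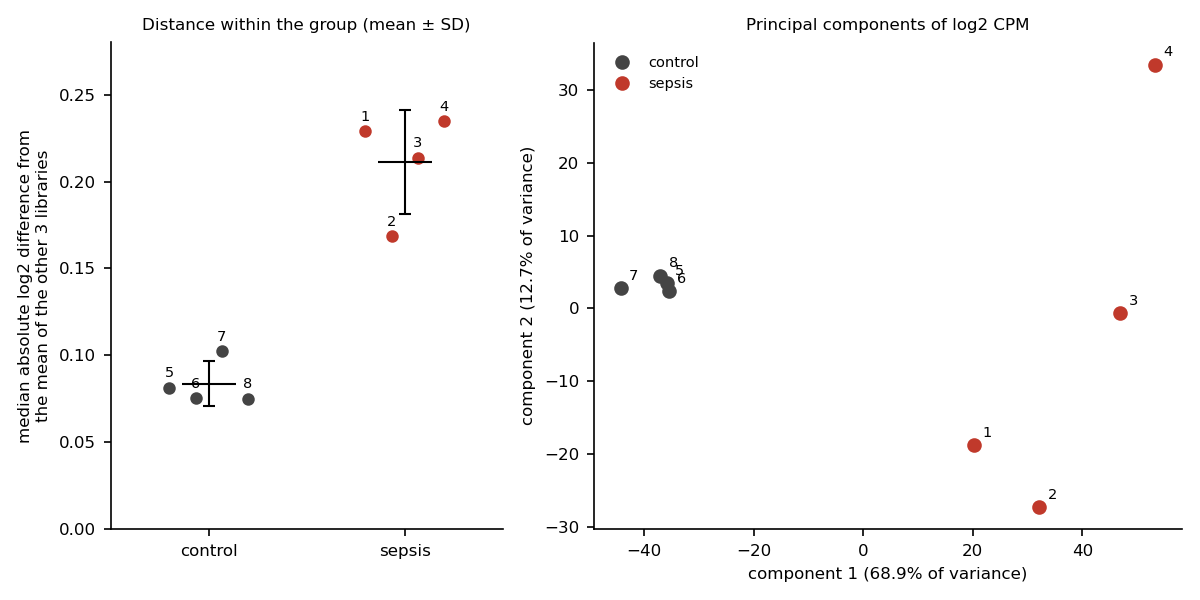
Left, distance of each library from the mean of the other 3 of its group, as the median absolute log2 difference over genes, with group mean and SD. Right, scores of the 8 libraries on the first 2 principal components of log2 CPM, where the controls sit together and the sepsis pools spread, library 4 at the far end from libraries 1 and 2 on component 2.

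The pools differed in strength and in kind. Among genes called higher, library 3 had the largest change from control in 40.1% and library 4 in 39.3%, against 8.24% for library 1 and 12.4% for library 2. Library 1 was the pool nearest to control for 55.8% of genes called higher and 41.2% of genes called lower. Among genes called lower, library 4 was the farthest in 43.0%. Library 3 carried the largest hypoxia and immediate-early list means, and library 4 the lowest means of the P450, conjugation, bile acid, lipid synthesis, urea cycle, one-carbon and TCA cycle lists. The lowest mean of the cholesterol list was in library 2, and that of the alcohol and aldehyde dehydrogenase, esterase and reductase list in library 1. Markers of proliferation also differed, with list means of -0.25, -0.51, 0.21 and 0.46. Each pool held 3 rats, so whether a pool's value reflects all of its rats or 1 of them cannot be told apart.

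Among the 10 genes of moderate level with the largest SD over the sepsis pools, several were near 0 in libraries 1 and 2 and present in 3 and 4. On CPM scaled over all 16 libraries, Evc, a ciliary protein gene, read 0.748, 0.773, 10.7 and 10.4 CPM in sepsis libraries 1 to 4 and 14.2, 10.2, 10.5 and 15.4 CPM in controls 5 to 8. Prlr, the prolactin receptor, read 1.20, 0.580, 11.3 and 20.8 against 8.42, 6.14, 6.32 and 9.12 CPM, and Akr1b7, an aldo-keto reductase, 0.0499, 0.0644, 13.4 and 11.7 against 3.90, 3.56, 3.16 and 4.75 CPM. Adh6, an alcohol dehydrogenase, read 0, 0, 1.92 and 5.32 CPM against 20.5, 14.8, 13.2 and 24.3 CPM. In the 8 propofol libraries, sepsis and control alike, these genes were low, at 0.547 to 1.97 CPM for Evc, 0.621 to 2.50 for Prlr, 0.0912 to 0.428 for Akr1b7 and 0.0 to 0.0480 for Adh6. For these 4 genes sepsis libraries 1 and 2 lay at or below the upper end of the propofol range and libraries 3 to 8 above it, and the origin of this difference was not tested. The propofol libraries carried names of a separate sequencing submission, so anesthetic and sequencing run cannot be told apart in such levels. Of the 4, Adh6 alone was called under isoflurane (-3.35 ± 0.82, adjusted p = 0.00909 with edgeR and 0.081 with DESeq2, and -4.75 without library 4). Fam111a, a protease gene linked to DNA replication, read 0.187, 0.367, 0.856 and 46.2 CPM in sepsis and 0.758, 0.753, 0.443 and 0.532 CPM in control, so that library 4 alone was high. It was not called (4.27 ± 1.60, adjusted p = 0.0509), and the log2 fold change was -0.37 without library 4 and 4.66 to 4.69, with a call, without library 1, 2 or 3. Ubd, a ubiquitin-like protein induced by TNF and interferon, read 0.421, 0, 10.5 and 24.99 CPM against 1.43, 0.942, 2.48 and 1.64 CPM and was not called either (adjusted p = 0.104), except without library 1 (adjusted p = 0.0351) or 2 (adjusted p = 0.0353).

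The response under isoflurane was set against that under propofol by an interaction over all 16 libraries. Rats of the propofol groups had been induced with ketamine and xylazine, so the anesthetic and the induction drugs cannot be told apart. The propofol libraries also carried names of a separate sequencing submission, so levels under each anesthetic cannot be told apart from sequencing run. Of 10621 genes 289 were called (2.72%), 176 with the higher and 113 with the lower response under isoflurane, and 2451 had an unadjusted p below 0.05. The count rested on single libraries, with 54 calls without library 12, a propofol sepsis pool, and 1615 without sepsis library 1 of isoflurane. Tgm2, the tissue transglutaminase, rose under isoflurane from 119, 128, 101 and 139 CPM in control to 311, 391, 529 and 406 CPM in sepsis (1.75 ± 0.16), against a log2 fold change of 0.20 under propofol, and the difference was 1.53 ± 0.20 (adjusted p = 0.0035). For Cd74 the log2 fold changes were 0.72 ± 0.10 and -0.11 (difference 0.82 ± 0.12, adjusted p = 0.0074), and 3 of the 8 class II genes were called. Crot fell more under isoflurane, with -2.23 ± 0.16 against -0.70 (difference -1.54 ± 0.21, adjusted p = 0.00545). Nnmt, which methylates nicotinamide, differed by -0.92 ± 0.14 (adjusted p = 0.0101), with 0.25 ± 0.11 under isoflurane and 1.16 under propofol. Under isoflurane it was not called, but was without library 4.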

How the data were processed

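RNA from pooled rat liver was enriched for poly(A), made into stranded libraries with NEBNext Ultra II Directional and sequenced single-end. The authors deposited raw counts, 1 whole number per gene and library for 17055 gene symbols plus 2 entries for reads on no gene or on more than 1, which were left out here (22.4% to 25.4% and 1.07% to 1.26% of reads). The submitters' processing notes name STAR and the genome build rn5. The sources used here do not give the counting program or annotation. No column of another series was present (0 columns).

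Libraries were grouped by their titles. Genes with low counts were removed with filterByExpr (minimum count 10, minimum total 15), libraries were scaled by TMM, and the 8 isoflurane libraries were fitted with edgeR 4.0.16 (glmQLFit and glmQLFTest, R 4.3.3) with Benjamini-Hochberg adjustment at 0.05. The low-count limit was applied by group, so a gene very low in sepsis or in control could pass through the other group alone. Counts and medians of lists with such genes lean toward that group. The interaction with propofol used all 16 libraries. The SE after a log2 fold change is the absolute change divided by the square root of the F of the quasi-likelihood test. It was thus derived from the test and not estimated on its own. Log2 CPM used a prior count of 2. DESeq2 1.42.0, which the study's methods state, and limma 3.58.1 (voom) served as alternatives, together with other scalings and low-count limits, counts thinned to the shallowest library and the omission of each library in turn. A voom fit with a variance per group was chosen later, with the data seen. The edgeR, DESeq2 and limma steps were tested on simulated data. Depth, 16472017 to 49937173 reads on genes, leaves genes of a few reads per library uncertain, and floors and intervals from counts would cover counting error only.

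The gene lists were chosen with earlier results of these data known, and so were the members of each. Named genes are the 12 largest rises and falls without overlap with mean log2 CPM at or above 1, up to 3 called rises and 3 called falls per list, the 8 largest gains and losses in CPM, the 10 genes with the largest SD over the sepsis pools with mean log2 CPM at or above 2, and the 5 smallest interaction adjusted p in each direction. Subunits of complexes I to V and the MAPK and DUSP families were left out, and a few other genes that the rule names are not reported here. Other genes in the text were chosen after their values had been seen. They include those given as not called, except Evc, Prlr, Akr1b7, Fam111a, Ubd and Nnmt, which the rules name. They also include Nfkbia, Icam1, Il1b, Socs3, Slpi, Thbd, Vegfa, Adm, Bnip3, Ankrd37, Hif1a, Bcl2l1, Per2, Cpt2, Marco, S100a9 and Slco2b1. Promoter windows are those of RefSeq on GRCr8. Pools of 3 rats are the units of all tests.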

Additional observations from a re-analysis of the deposited data

Results flagged for a closer look

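In each group of 4 libraries the highest or lowest value was compared with its nearest neighbor. In 34 of 426 such sets (7.98%) its gap to the others, as a share of the range, exceeded the critical value of Dixon at the 95% level, where chance gives about 1 in 20. Some of these genes were named for their spread over the sepsis pools, so this share is no test. Sepsis library 4 held 10 of them and control library 7 also 10. In sepsis library 4 these were Abcb11 at 405 CPM, C9 at 4339 CPM, Cyp2c12 at 346 CPM, Fam111a at 46.2 CPM, Icam1 at 173 CPM, Saa4 at 2190.4 CPM, Thbd at 85.6 CPM, Tlr1 at 6.98 CPM and Tlr2 at 9.44 CPM. In sepsis library 1 it was Nsdhl at 120.0 CPM. In sepsis library 3 it was Cebpb at 431 CPM. In control library 7 they were Btg2 at 319 CPM, Ccnd3 at 24.2 CPM, Clec4f at 107 CPM, Cxcl1 at 151 CPM, Ehd3 at 56.0 CPM, Il1r1 at 457 CPM, Itgam at 2.17 CPM, Maff at 9.47 CPM, Nfkbiz at 72.6 CPM and Slpi at 7.30 CPM. In control library 5 they were Apoa1 at 2438 CPM, Cps1 at 4886 CPM, Nfkb2 at 11.5 CPM and Tlr1 at 0.937 CPM. In control library 6 it was Pdk4 at 10.9 CPM. In control library 8 they were Csf3 at 0.0591 CPM, Hamp at 208 CPM and Il6 at 0.0788 CPM. Control library 8 was also the deepest, with 49937173 reads on genes. Among list means of the log2 difference from control, the values that stood apart were 0.37 for markers of pancreas, gut, muscle and fat in library 1, -0.49 for hepatocyte markers in library 4, 0.034 for apolipoproteins in library 3 and -0.37 for ABC transporters in library 3.

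The response to sepsis differed between isoflurane and propofol, by the interaction test at an adjusted p below 0.05, for 23 of 177 genes named and for 2.72% of all genes tested. Tgm2, Cd74, Crot and Nnmt were named for a small interaction p, so these shares cannot be compared. The log2 difference, isoflurane minus propofol, was positive for Hmox1 (3.00), Cux2 (2.33), Tnf (2.12), Slpi (1.96), Ccl3 (1.88), Tgm2 (1.53), Hspb8 (1.23), Socs2 (1.10), Nlrp3 (1.08), Cd74 (0.82), RT1-Ba (0.72), RT1-Da (0.70), Npm1 (0.52) and Gsto1 (0.39). It was negative for Pfkfb1 (-1.63), Crot (-1.54), Cpt1a (-1.46), Sult2a6 (-1.40), Nags (-1.26), Gpt2 (-1.23), Agt (-0.96), Nnmt (-0.92) and Il1r1 (-0.70). The number of such calls depended on single libraries, and the induction drugs differed along with the anesthetic.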

How the results depend on the processing

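The number of genes called under isoflurane stayed within 1.5 times under every alternative, from 4145 without library 8 to 5779 with all 16 libraries in 1 fit, and no call shared with an alternative changed sign. It was 5397 with DESeq2, 5205 with limma-voom and 4894 with a variance per group. Scaling by library totals alone shifted the median of all genes to -0.06 and the share of calls that were higher from 51.3% to 43.0% (2240 higher, 2964 lower). The ratio of spread between sepsis and control pools was 2.23 to 2.93. The number of interaction calls was not stable. It moved from 289 (176 higher, 113 lower) to 847 with DESeq2 (506 and 341) and 168 without a limit on low counts (101 and 67), and ranged from 54 to 1615 when 1 library was left out (29 to 865 higher, 25 to 750 lower), lowest without library 12 and highest without library 1. The cause was not tested.

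Of 157 named genes that were called, 7 lost the call in at least 1 alternative, 2 of them when a library was left out, and none reversed. Over all named genes and alternatives, a call was gained in 19 cases. The gains given with single genes above are those from leaving out 1 library. Medians of 6 of 62 lists changed sign (complement, coagulation, red blood cell, brain, cell cycle, and lysosome and autophagy genes). The number of calls moved by over 1.5 times in 9 lists, whose values stand beside them except that of the brain list (0 to 1). No paired analysis was possible because the libraries carry different numbers in the 2 groups. Low-count genes such as Il6, Tnf and Csf3, the last with reads in control library 8 alone, and genes with close copies are the least certain.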

Other observations

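Several further gene groups are described here, beside 25.7% called higher and 24.4% called lower among all genes tested. Heat shock chaperones (33.3% called) and lysosome and autophagy genes (47.7%) were called less often than the 50.0% of all genes. So were the SLC25 carriers (41.2%) and the genes of mitochondrial import, dynamics and biogenesis (39.3%). In the growth hormone, IGF and insulin list 10 of 24 genes rose and 5 fell. Irs2, the insulin receptor substrate of fasting liver, rose from 77.7, 77.1, 59.9 and 82.5 CPM in control to 135, 186, 293 and 280.1 CPM in sepsis (1.59 ± 0.24, adjusted p = 0.000844), and Igfbp3, the main carrier of IGF-1 in plasma, fell from 80.8, 74.6, 89.7 and 80.8 to 45.7, 45.5, 43.5 and 39.8 CPM (-0.90 ± 0.08, adjusted p = 8.8e-05). Met, the receptor of hepatocyte growth factor, fell from 27.2, 30.4, 34.9 and 30.5 to 15.6, 15.9, 19.2 and 13.9 CPM (-0.93 ± 0.12, adjusted p = 0.000382). Bile duct markers were higher in 4 of 7 cases and lower in 1, with 3 calls without control library 6, 7 or 8. They were led by Spp1, osteopontin, which rose from 2.94, 3.01, 2.57 and 2.66 to 6.31, 9.92, 8.96 and 11.04 CPM (1.69 ± 0.17, adjusted p = 0.000169) and is also made by macrophages. Heat shock chaperones rose in 6 of 21 cases and fell in 1. Hspb8, a partner of selective autophagy, rose from 140.4, 157, 105 and 162 to 232, 260.2, 428 and 497 CPM (1.33 ± 0.25, adjusted p = 0.00286), and Fkbp4, a co-chaperone of steroid receptors, fell from 81.9, 78.6, 80.3 and 84.2 to 45.4, 40.8, 33.3 and 19.96 CPM (-1.22 ± 0.21, adjusted p = 0.00174).

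Lysosome and autophagy genes rose in 10 of 44 cases and fell in 11, carriers of the mitochondrial SLC25 family in 2 and 12 of 34, genes of mitochondrial import, dynamics and biogenesis in 2 and 9 of 28 (5 to 7 calls in place of 11 without control library 5, 6, 7 or 8), and apolipoproteins in 4 and 7 of 20. Cell cycle genes were called in 9 of 31 cases, 7 higher and 2 lower, below the share of all genes. Ccnd3, a cyclin of the start of the cycle, rose from 36.9, 39.3, 24.2 and 37.7 to 83.7, 80.7, 93.3 and 109 CPM (1.41 ± 0.16, adjusted p = 0.000253), while Ccnd1 fell from 8.83, 9.23, 8.23 and 8.79 to 3.97, 4.53, 5.14 and 3.43 CPM (-1.04 ± 0.13, adjusted p = 0.00037). Hepatocyte markers were higher in 2 of 20 cases and lower in 8, a called share of 50.0% like that of all genes. Markers of pancreas, gut, muscle and fat were higher in 3 of 5 and lower in 1. Their sums were 18.1 to 22.6 CPM in sepsis and 17.02 to 18.02 CPM in control. These sums cover 19 members without Cdh17, 6 of which had no read.

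Genes that differ between male and female rat liver were uneven in the sepsis pools. These were looked up after their spread had been seen. Cyp2c11, a P450 of male liver, read 960.0, 984, 545 and 359 CPM in sepsis libraries 1 to 4 and 1395, 1448, 1517 and 1366 CPM in controls 5 to 8, and Cyp2c12, a P450 of female liver, 103, 71.3, 96.9 and 346 CPM against 100.5, 84.4, 86.6 and 111 CPM. Cux2, a repressor found in female liver, read 19.8, 20.1, 43.0 and 90.7 CPM against 7.58, 9.04, 4.34 and 9.97 CPM (2.47 ± 0.51, adjusted p = 0.00413, and 1.82 without library 4). On CPM scaled over all 16 libraries, the propofol libraries read 20.4 to 31.2 CPM for Cux2. They read 66.0 to 228 CPM for Cyp2c12 and 648.5 to 1552 CPM for Cyp2c11. Sepsis libraries 1 and 2 lay inside the propofol range of Cux2, at 21.1 CPM, and the isoflurane controls below it. Library 4 lay outside each of these ranges. The Y-linked Rps4y2 read 9.49, 8.45, 7.20 and 2.92 CPM against 6.38, 6.03, 6.91 and 6.07 CPM and was not called, except without library 4 (0.41, adjusted p = 0.0198). Library 4 was the extreme sepsis pool for all 4 genes, lowest for Cyp2c11 and Rps4y2 and highest for Cyp2c12 and Cux2. All rats are described as male, and the origin of this pattern was not tested.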
